A study of Homo sapiens with 62 samples.

Results

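The genes described here lie on the short arm of chromosome 7 (7p) and were expressed in A2058, a human melanoma cell line. They were chosen by position and level only: any biotype, chromosome 7, a gene midpoint before the centromere (GRCh38), and a mean of at least 0.5 CPM (counts scaled to the depth of the library) over the 18 A2058 libraries. This gave 248 of the 58735 genes in the tables, from 1031 listed on 7p at any level; 198 were protein-coding and 50 were antisense RNAs, long intergenic RNAs, pseudogenes and other transcripts. The question was how far each gene followed the loss of the extra 7p copy in 3 separate clones, and whether it moved in clones of the same line that lost another arm.

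All groups came from 1 line. The WT group (4 libraries) is A2058 as it stands, with gains of 1q, 7p and 8q according to the labels. The 7p-loss group (6 libraries) holds 3 clones grown from single cells in which ReDACT-CO, an engineering method directed at the arm, removed the trisomy of 7p. The 1q-loss and 8q-loss groups (4 libraries and 2 clones each) were made in the same way at the other arms, and their labels name no change of 7p. Every culture was plated a day before RNA was taken. A clone is the progeny of 1 cell and gave 2 libraries, so clone and engineered loss cannot be told apart within a clone, and p-values below measure the spread between these libraries.

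A cell with an extra chromosome arm carries an extra copy of every gene on it. With no adjustment, the transcripts of such genes follow the copy number, so that going from 3 copies to 2 leaves 66.7% of the level, a log2 fold change of -0.58. Feedback on transcription, mRNA decay or the state of the cell can move single genes away from that proportion. The short arm of chromosome 7 carries housekeeping genes such as ACTB (cytoplasmic beta-actin) and RAC1 (a small GTPase of the actin cytoskeleton), the HOXA cluster of positional transcription factors, the mismatch repair gene PMS2 and the receptor gene EGFR.

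Promoters were looked up in RefSeq (GRCh38.p14, 300 bases, 250 before to 50 after the start of the gene), and 155 of the 248 genes matched. The 4 printed here were chosen to show 2 genes that fell alike in every clone (PPIA, NUDCD3), a gene that fell much further in clone 1 than in clones 2 and 3 (PRKAR1B), and the 1 gene whose interval in 7p-loss lay above 0 (CDCA7L). Capitals mark any of 3 motifs on either strand, namely the TATA box (TATAAA), the CCAAT box (CCAAT) and the GC box (GGGCGG); adjacent or overlapping matches run together.
PPIA, chr7:44796431-44796730, plus strand: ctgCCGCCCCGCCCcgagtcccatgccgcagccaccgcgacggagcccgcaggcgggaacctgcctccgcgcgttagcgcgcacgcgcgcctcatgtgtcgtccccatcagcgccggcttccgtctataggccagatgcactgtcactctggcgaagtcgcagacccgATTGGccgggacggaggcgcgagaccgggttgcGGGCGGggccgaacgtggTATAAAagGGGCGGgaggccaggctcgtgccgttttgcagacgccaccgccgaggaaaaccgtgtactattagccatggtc
NUDCD3, chr7:44490609-44490908, minus strand: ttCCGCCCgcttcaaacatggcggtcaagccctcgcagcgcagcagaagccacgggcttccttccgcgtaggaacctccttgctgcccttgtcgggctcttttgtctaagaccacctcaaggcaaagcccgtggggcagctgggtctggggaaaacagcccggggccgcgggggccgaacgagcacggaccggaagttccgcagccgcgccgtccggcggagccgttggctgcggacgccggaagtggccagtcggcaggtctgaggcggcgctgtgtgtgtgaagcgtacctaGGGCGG
PRKAR1B, chr7:727627-727926, minus strand: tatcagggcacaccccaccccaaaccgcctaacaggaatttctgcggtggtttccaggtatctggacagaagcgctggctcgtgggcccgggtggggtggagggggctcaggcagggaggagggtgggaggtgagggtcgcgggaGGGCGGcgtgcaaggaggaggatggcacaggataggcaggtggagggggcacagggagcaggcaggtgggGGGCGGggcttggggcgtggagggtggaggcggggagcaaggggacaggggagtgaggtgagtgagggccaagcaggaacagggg
CDCA7L, chr7:21945850-21946149, minus strand: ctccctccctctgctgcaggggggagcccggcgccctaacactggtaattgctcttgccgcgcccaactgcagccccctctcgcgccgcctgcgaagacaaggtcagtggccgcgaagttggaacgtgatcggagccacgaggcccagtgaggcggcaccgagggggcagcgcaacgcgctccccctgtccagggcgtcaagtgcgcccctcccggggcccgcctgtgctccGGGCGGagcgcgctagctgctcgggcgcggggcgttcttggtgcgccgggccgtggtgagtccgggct
The first holds 40 CpG dinucleotides, the second 32, the third 12 and the fourth 34. Of these promoters, PPIA alone held a TATA box or a CCAAT box, and each of the 4 held a GC box. Over the 155 matched promoters 67.1% held a GC box, 36.1% a CCAAT box and 5.16% a TATA box, against 44.6%, 35.7% and 11.95% of 27305 RefSeq promoters of the same length. The larger set was not limited to genes expressed in A2058, so the sets differ in more than the arm. A match describes the letters in the window only.

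The 18 libraries held 19595543 to 28622197 counts each. The labelled cell type was checked against 8 genes of the melanocyte lineage. SOX10, the lineage's transcription factor, had 466 to 652 CPM in WT, 579 to 687 in 7p-loss and 406 to 707 in 8q-loss, but 24.9 to 81.7 in 1q-loss, where the summed level of the list was 52.6 to 264 CPM against 2593 to 4455 in WT. TYR, the tyrosinase of melanin synthesis, set clone 1 of 7p-loss apart, with 583 and 1066 CPM against 96.3 to 157 in WT and 0.0963 to 4.91 in clones 2 and 3. Summed leukocyte markers stayed at or under 0.429 CPM in every library, while summed fibroblast markers were at 36.4 to 45.4 CPM in WT, 8.06 to 38.7 in 7p-loss, 65.5 to 83.9 in 8q-loss and 147 to 272 in 1q-loss. Epithelial markers were at 80.4 to 106 CPM in WT, 41.9 to 126 in 7p-loss, 96.2 to 122 in 8q-loss and 166 to 211 in 1q-loss. Of the 4 fibroblast markers, 2, 1 and 2 were called lower in clones 1, 2 and 3 of 7p-loss (list medians -1.16, -1.08 and -1.85). Over all tested genes 18.7%, 3.27% and 3.91% were called lower in these clones, and 17.9%, 1.83% and 2.1% higher. The 2 tested epithelial markers were called lower in clone 1 (median -1.16) and neither was called in clones 2 and 3. TYR was also at 2.11 to 6.63 CPM in 8q-loss and at most 0.867 in 1q-loss. MLANA, a melanosome antigen, was at -2.31, -3.27 and -3.57 (log2 against WT) in clones 1, 2 and 3 and at -3.17 in 8q-loss. TYRP1, also of the melanocyte list, was at 3.89, -1.35 and -4.14 in clones 1, 2 and 3. Of the 8 melanocyte genes, 1, 3 and 3 were called lower in these clones, and 3, 0 and 0 higher (list medians 0.06, -1.17 and -1.41). In 8q-loss 3 were lower (1.49% of all genes) and 0 higher (0.542% of all). Their summed level was 1307 to 5084 CPM in 7p-loss and 2219 to 3909 in 8q-loss. Every loss group thus differed from WT in some of these genes, away from the targeted arms. Libraries also differed within a clone. DCT, an enzyme of melanin synthesis singled out after its values were seen, had 285, 293 and 330.0 CPM in the first libraries of the 3 clones of 7p-loss and 1788, 1172 and 1038 in the second, and 1702, 1631, 827 and 1602 in WT. Over genes, the difference between WT replicates 3 and 4 correlated with that between the 2 libraries of each clone at 0.42 to 0.56 in 7p-loss and at 0.67 and 0.78 in 8q-loss, whereas that between WT replicates 1 and 2 did so at -0.13 to -0.04 in 7p-loss. The labels name no batch, and whether the 4 WT libraries form 2 sets was not tested. Values are given per clone, and the part of cell state or of such library differences in any change on 7p was not tested.

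The shift of 7p genes as a whole was large against the spread of WT. Relative to the WT mean, and after subtracting the same median over autosomal genes outside chromosome 7 and the lost arms, the median 7p gene stood at -0.45 and -0.42 (log2) in the 2 libraries of clone 1. It stood at -0.50 and -0.54 in clone 2 and at -0.51 and -0.55 in clone 3. The 4 WT libraries lay between -0.01 and 0.00, the 1q-loss libraries between -0.07 and -0.04 and the 8q-loss libraries between 0.02 and 0.08. All 6 libraries of 7p-loss thus lay below all 12 others, with clone 1 nearest to them. Genes of the long arm, 7q, served as a comparison on the same chromosome and lay between 0.01 and 0.06 in the 7p-loss libraries. The 247 genes other than ACTB took 1.54% to 1.64% of all counts in 7p-loss and 2.25% to 2.30% in WT.

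**Figure D1:**
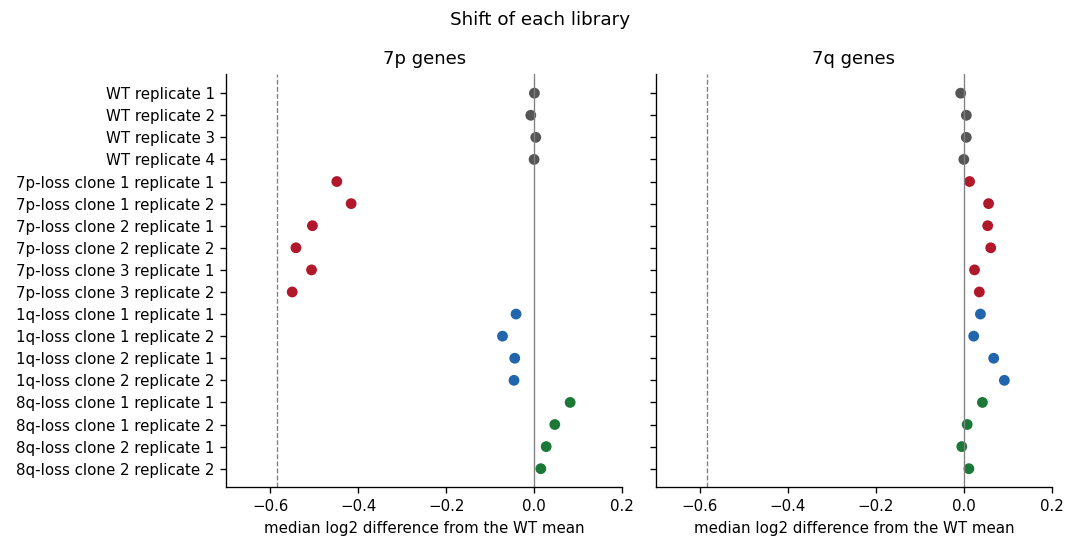
Median log2 difference from the WT mean over 7p genes (left) and 7q genes (right), 1 point per library, relative to other autosomal genes. The solid line marks 0 and the dashed line -0.58, the value for 2 of 3 copies; the 6 libraries of 7p-loss lie between -0.55 and -0.42 on the left and beside the other libraries on the right.

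Over all 3 clones together, edgeR's quasi-likelihood test was made on 15305 genes, 243 of them on the list; the other 5 (EPDR1, BMPER, AMZ1, AC002480.2 and TRG-AS1) had too few counts in these libraries. The median log2 fold change of these 243 was -0.51 (interquartile range -0.64 to -0.29), or 70.3% of WT, against 0.02 over genes outside 7p and 0.05 over 7q. Of the 243, 70 fell at an adjusted p under 0.05, where 0.804% of all tested genes were called lower, and 0 rose (0.105% of all). At an unadjusted p under 0.05, 146 were lower and 1 higher, and DESeq2 called 109 lower and 0 higher. In bulk RNA, fewer cells of a type and less RNA per cell cannot be told apart. In 114 of the 243 all 6 loss libraries lay below all 4 WT libraries, against 2.63% of all tested genes. The count of calls was far less stable than the median. It was 38 to 44 without any 1 of the WT libraries, 7 with WT replicates 1 and 2 only, 18 with WT replicates 3 and 4 only, 40 without clone 3, 142 without clone 1 and 23 when the libraries of each clone were summed, while the median stayed between -0.53 and -0.49.

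Each clone on its own gave a similar count. In clone 1, 121 of 245 tested genes fell (18.7% of all genes were called lower in that clone) and 12 rose (17.9% of all). In clone 2, 120 of 245 fell (3.27% of all) and 2 rose (1.83% of all). In clone 3, 127 of 245 fell (3.91% of all) and 0 rose (2.1% of all), with 3 higher at an unadjusted p under 0.05 by edgeR and 0 by DESeq2. The medians were -0.45, -0.53 and -0.53, and placing the undetected gene FAM221A at its bound left the first 2 as they were. In all, 178 of the 245 genes had a log2 fold change below 0 in each clone and 6 above 0 in each; 69 were called lower in each, of 135 such genes in the whole table. With 1 library of the clone left out, fewer genes were called in every clone. The clone then holds 1 library and the spread comes from the other groups, so these counts are not given.

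**Figure D2:**
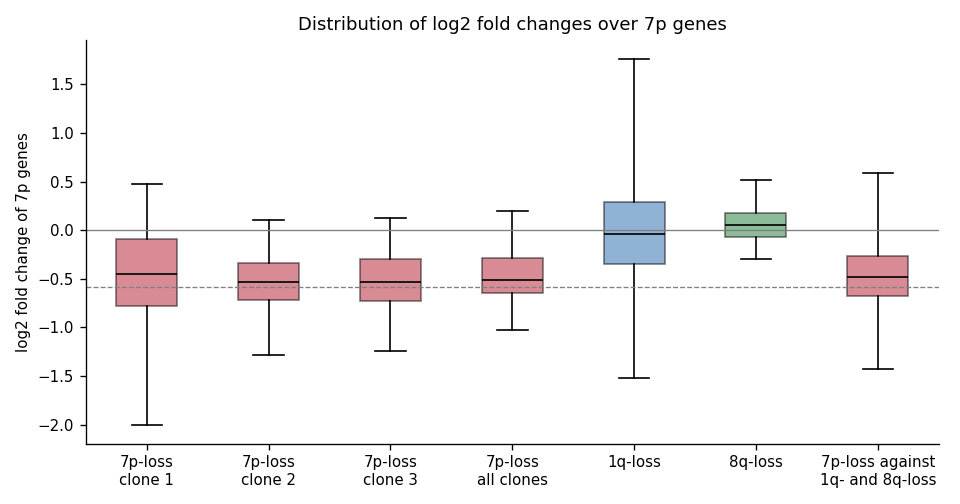
Log2 fold changes of 7p genes, with box from the first to the third quartile, line at the median and whiskers from the 5th to the 95th percentile, per comparison. The dashed line marks -0.58; the medians of the 3 clones lie at -0.45, -0.53 and -0.53 and those of 1q-loss and 8q-loss at -0.04 and 0.06.

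The 95% interval of each gene's log2 fold change in 7p-loss was read against -0.58, the value for 2 of 3 copies, and against 0. For 124 of 243 genes it held -0.58 and not 0, the pattern of 3.6% of all tested genes. For 24 it held 0 and not -0.58 (61.6% of all), and for 72 it held both (25.4% of all). It lay wholly below -0.58 for 9 genes (0.549% of all), between the 2 values for 13 (1.67% of all) and above 0 for 1, CDCA7L (7.15% of all). Precision differed between these classes: the median standard error (SE) was 0.12 for the 124 genes and 0.32 for the 72 genes whose interval held both, and 32 of the 72 had a mean under 5 CPM, against 9 of the 124. The fit also pooled the clones, so differences between clones enter the interval and its class. INTS1, DDX56 and POLM, all lower in clone 1 than in clones 2 and 3, were among the 124. PRKAR1B, with the same pattern, was among the 72. A place among the 124 thus does not show that each clone stood at -0.58.

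Of 7 genes of DNA repair and replication, 5 fell, with a list median of -0.62. Over all genes tested the median was 0.01 and 0.804% were called lower, the share to set beside each list below. POLD2 encodes the second subunit of DNA polymerase delta. It had 191, 183, 196 and 189 CPM in the WT libraries and 116 to 137 (median 119) in the 6 loss libraries. Every loss library was below every WT library, and log2 expression changed by -0.62 (SE 0.07, adjusted p = 0.00092 by edgeR's quasi-likelihood test). PMS2, a mismatch repair gene, lies at chr7:5973239-6009125 on the minus strand, and had 42.0, 39.8, 39.6 and 45.3 CPM in WT. In 7p-loss it had 27.4 to 31.8 CPM (median 28.5), again with no overlap and much the same in each clone. Its change was -0.52 (SE 0.07, adjusted p = 0.00578), and its reads cannot be fully told apart from those of its near-identical pseudogene copies. FIGNL1, an ATPase of recombination repair, fell by 0.61 (adjusted p = 0.0141). POLM, a polymerase of end joining, stood at -1.43 in clone 1 and at -0.63 and -0.51 in clones 2 and 3, a difference between clones (adjusted p = 0.00326), and its call over all clones was missed (adjusted p = 0.146).

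Among genes of the cytoskeleton and mitosis, 5 of 10 fell, with a median of -0.51. RAC1, at chr7:6374523-6403977 on the plus strand, had 584, 559, 544 and 536 CPM in WT and 349 to 404 (median 375) in 7p-loss. The groups did not overlap, and the loss group stood at 67.7% of WT (log2 -0.57, SE 0.06, adjusted p = 0.00092). ACTB, at chr7:5527147-5563784 on the minus strand, had 9333, 9649, 9626 and 9815 CPM in WT and 7173 to 8213 (median 7735) in 7p-loss. It too was lower in every loss library, but by less: 80.5% of WT (log2 -0.32, SE 0.06, 95% interval -0.45 to -0.18, adjusted p = 0.0384), a call lost under 15 of 22 alternative settings. Per kilobase of gene model, its WT level was 2729.7 CPM, against 178 CPM for RAC1. FSCN1, which bundles actin filaments, had 358, 423, 558 and 400.5 CPM in WT and 355 to 516 (median 420.0) in 7p-loss. The groups overlapped throughout, and the interval of its log2 change, -0.37 to 0.28, left out -0.58. CHN2, a GTPase-activating protein for RAC1, had the lowest value of the list, -1.99, at a WT mean of 1.32 CPM and without a call (adjusted p = 0.0728).

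Of 9 genes of translation, 6 fell (median -0.49). EIF3B, a core subunit of initiation factor eIF3, had 676, 651, 687 and 626 CPM in WT and 407 to 473 (median 431) in 7p-loss. All loss libraries were lower, at 66.3% of WT (log2 -0.60, SE 0.07, adjusted p = 0.00169). MALSU1, a mitoribosome assembly factor, fell by 0.85 (SE 0.15, adjusted p = 0.0272), a call lost under 13 of 22 settings, among them without WT replicate 2, 3 or 4. Its coordinates overlap those of IGF2BP3 on the other strand. GARS, the glycyl-tRNA synthetase, was not called (log2 -0.20, SE 0.19, adjusted p = 0.68). MRPS24 had a WT mean of 0.414 CPM inside the annotated readthrough gene URGCP-MRPS24, so its value, -0.06 (SE 0.62), says little about the ribosomal protein.

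Of 13 mitochondrial genes, 4 of them also on the translation list, 9 fell, with a median of -0.60. CHCHD2, a coiled-coil protein of the intermembrane space and 1 of the 6 listed genes nearest the centromere, fell by 0.61 (SE 0.09, adjusted p = 0.00973). CYCS, cytochrome c, fell by 0.59 (SE 0.09, adjusted p = 0.00793). TOMM7, a small subunit of the outer membrane import pore, had 98.2, 115, 176 and 149 CPM in WT and 56.7 to 83.2 (median 68.6) in 7p-loss. The WT libraries themselves spread widely, yet none reached down to the loss libraries, and the log2 change of -0.97 (SE 0.16, 95% interval -1.32 to -0.61, adjusted p = 0.0188) lay below -0.58. In 1q-loss TOMM7 was lower as well (log2 -0.54, adjusted p = 0.0181).

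For protein folding, transport and degradation, 5 of 10 fell (median -0.60). CCT6A, a subunit of the CCT chaperonin, lies at chr7:56051630-56063989, among the 6 genes nearest the centromere. It had 831, 812, 789 and 829 CPM in WT and 505 to 552 (median 540.4) in 7p-loss. The spread within each group was small, the groups were far apart, and the loss group stood at 65.3% of WT (log2 -0.62, SE 0.06, adjusted p = 0.000669). In clones 1, 2 and 3 it was -0.69, -0.60 and -0.58. PPIA, the prolyl isomerase cyclophilin A, had 1846, 1889, 2230.1 and 2123 CPM in WT and 1125 to 1307 (median 1213) in 7p-loss. It was lower in every loss library (log2 -0.74, SE 0.07, adjusted p = 0.00092), with processed pseudogene copies elsewhere in the genome that may share reads. YKT6, a SNARE of vesicle fusion, fell by 0.83 (adjusted p = 0.0118) and was lower in clone 1, -1.20, than in clones 2 and 3, -0.67 and -0.69. FKBP9, a prolyl isomerase of the endoplasmic reticulum, stood at 0.14 in clone 1, where it was not called, and fell by 0.51 in clone 2 and by 0.57 in clone 3.

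The partners of these proteins encoded on other chromosomes gave a comparison. Of 13 other subunits of the 20S proteasome, 7 of the CCT chaperonin, 5 of RPA with DNA polymerase delta and 12 of eIF3, 0 were called in 7p-loss over all clones by edgeR. At an unadjusted p under 0.05, 1 of the 37 was lower, and DESeq2 called 0. Their list medians were -0.04, -0.04, -0.03 and -0.10. In clone 1, where 18.7% of all genes were called lower and 17.9% higher, 3 of the 13 proteasome partners fell (median -0.20), as did 5 of the 7 CCT (-0.28) and 8 of the 12 eIF3 partners (-0.31). Of the 5 RPA and polymerase delta partners, 3 fell and 2 rose there. In clones 2 and 3, edgeR and DESeq2 called 0 partners of any list (1 and 3 of 37 at an unadjusted p under 0.05), with CCT and eIF3 medians between -0.03 and 0.05. CCT6A and EIF3B were lower than those medians in each clone, EIF3B with -0.69, -0.63 and -0.50.

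Of 9 RNA processing genes, 2 fell by edgeR over all clones (median -0.36), with 7 lower at an unadjusted p under 0.05 and 4 called lower by DESeq2. INTS1, the scaffold subunit of Integrator, had 652, 581, 631 and 627 CPM in WT, 239 and 258 in clone 1, 456 and 485 in clone 2, and 481 and 513 in clone 3. All loss libraries were below WT, but clone 1 was far below the others (log2 -1.33, -0.42 and -0.33; difference between clones, adjusted p = 2.48e-05). HNRNPA2B1, an RNA-binding protein of splicing, had 1461, 1505, 1619 and 1201 CPM in WT and 1074 to 1256 (median 1227) in 7p-loss. One WT library lay inside the loss range, and the change, -0.28 (SE 0.09), was not called (adjusted p = 0.215). DDX56, a nucleolar helicase, stood at -1.06 in clone 1 and -0.53 and -0.45 in the others. IGF2BP3, an oncofetal mRNA-binding protein, had 90.6, 107, 93.2 and 83.5 CPM in WT and 93.2 to 116 (median 107) in 7p-loss. The groups overlapped, and the interval of its log2 change, -0.05 to 0.37, lay above -0.58.

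Of 14 chromatin and transcription factor genes, 4 fell (median -0.37). MAFK, a small Maf protein, fell by 0.74 (SE 0.11, adjusted p = 0.00837) and evenly, with -0.71, -0.72 and -0.79 in clones 1, 2 and 3. CBX3, a heterochromatin protein, fell by 0.40 (SE 0.08, adjusted p = 0.0408), a call lost under 15 of 22 alternative settings, each WT library left out among them. H2AFV, a histone H2A variant, was at -0.09 in clone 1 and fell by 0.59 and 0.77 in clones 2 and 3 (difference between clones, adjusted p = 0.000322). HDAC9, a class IIa histone deacetylase, had 11.1, 15.7, 15.3 and 11.5 CPM in WT, 40.4 and 31.1 in clone 1, 10.1 and 12.5 in clone 2, and 15.5 and 9.03 in clone 3. Only clone 1 stood above WT (log2 1.41, adjusted p = 0.000539), so the value over all clones, 0.55 (SE 0.42), rested on it and was -0.19 without it.

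In the HOXA cluster 0 of 13 genes were called by edgeR over all clones, with a median of -0.29. At an unadjusted p under 0.05, 2 were lower, and DESeq2 called 0. In clone 1, 3 of the 13 fell, a share near that of all genes called lower there (18.7%). HOXA10 was at 50.2% of WT in clone 1, where it fell, and at log2 -0.27 in clone 2 and 0.16 in clone 3 (difference between clones, adjusted p = 0.000851). HOXA11-AS, an antisense RNA of the cluster, was at -2.42, -0.46 and 0.09. HOXA3 (log2 -0.05, SE 0.25), HOXA4 (0.42, SE 0.38) and HOXA5 (0.27, SE 0.32) had wide intervals; genes of the cluster overlap each other, so their reads may be shared.

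Signalling genes also had 0 calls by edgeR among 14 tested over all clones, at a median of -0.52. There were 4 lower at an unadjusted p under 0.05 and 3 called lower by DESeq2. LFNG, a glycosyltransferase of Notch receptors outside that list, had 13.5, 11.95, 17.7 and 12.5 CPM in WT and 3.66 to 6.78 (median 5.07) in 7p-loss. Every loss library was below every WT library, at 36.7% of WT (log2 -1.45, SE 0.205, adjusted p = 0.00617). FAM20C, a secretory-pathway kinase near the telomere, was at -1.41 (SE 0.29, adjusted p = 0.0579), and PDGFA, a growth factor, at -1.78 (SE 0.70, adjusted p = 0.316) from a WT mean of 1.02 CPM. GNA12, a G protein alpha subunit, was at -0.16 in clone 1 and fell by 0.62 and 0.74 in clones 2 and 3. GPNMB, a melanosomal glycoprotein, was at -0.68 (SE 0.32, adjusted p = 0.394). ITGB8, an integrin subunit, stood at 0.26 (SE 0.18, adjusted p = 0.564).

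Of the 4 expressed zinc-finger genes of the KRAB type, ZNF316 fell by 0.74 (SE 0.09, adjusted p = 0.00325). ZNF12 was at -0.38 (SE 0.12, adjusted p = 0.231) and ZNF853 at -1.15 (SE 0.29, adjusted p = 0.121).

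The 4 genes with the smallest p over all clones were NUDCD3, TTYH3, CCT6A and URGCP. NUDCD3, a co-chaperone that stabilises dynein intermediate chains, had 131, 126, 119 and 140.1 CPM in WT and 66.6 to 78.2 (median 74.4) in 7p-loss. TTYH3, a membrane protein of the tweety family, had 552, 535, 563 and 543 CPM in WT and 282 to 350.0 (median 316). For both, the loss libraries lay well below WT, and the 3 clones lay close together, at -0.87, -0.83 and -0.73 for NUDCD3 and -0.69, -0.90 and -0.80 for TTYH3. Over all clones the changes were -0.80 (SE 0.07) and -0.79 (SE 0.07), each with an adjusted p of 0.000645 and an interval below -0.58. URGCP, whose name stands for upregulator of cell proliferation, fell by 0.70 (SE 0.06, adjusted p = 0.000669).

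The highest values among genes with a mean of at least 5 CPM were those of HDAC9, CDCA7L, TSPAN13, HOXA5, ITGB8 and GSDME. CDCA7L, a MYC-interacting transcriptional regulator, had 13.0, 13.6, 13.9 and 14.8 CPM in WT, 24.6 and 26.9 in clone 1, 17.2 and 17.0 in clone 2, and 16.5 and 17.3 in clone 3. Every loss library was above every WT library, most of all in clone 1 (log2 0.89, 0.30 and 0.29). Over all clones the change was 0.52 (SE 0.16, 95% interval 0.17 to 0.88), which missed the call (adjusted p = 0.204), whereas clone 1 alone passed it (adjusted p = 8.01e-05). In 8q-loss it had 17.8 and 16.7 CPM in clone 1 and 0.192 and 0.554 in clone 2. TSPAN13, a tetraspanin, and GSDME, a gasdermin of pyroptosis, were at 0.31 (SE 0.15) and 0.26 (SE 0.23), without calls. AC102953.2, a gene known by its clone name only, was at the other end of the list and fell by 1.05 (SE 0.19, adjusted p = 0.0325), a call lost under 12 of 22 settings, each WT library left out among them. Calls of FIGNL1, TOMM7 and YKT6 were lost under 8, 8 and 6 settings, among them without WT replicate 4.

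**Figure D3:**
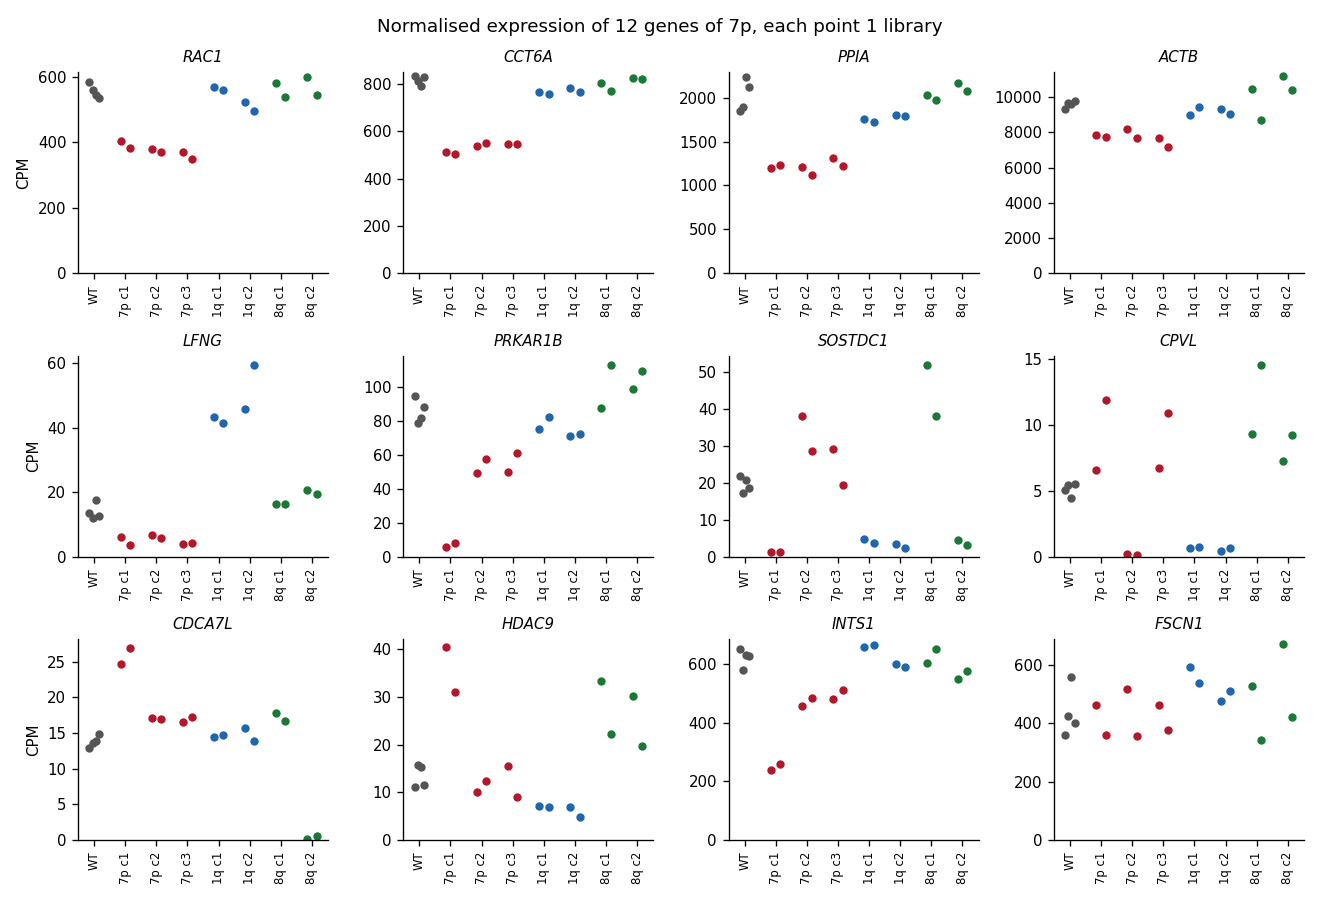
Normalised expression (CPM, linear axis from 0) of 12 genes of 7p in 8 sets of libraries, 1 point per library; c1 to c3 are clones. RAC1, CCT6A and PPIA lie below WT in all 3 clones of 7p-loss, ACTB by less, FSCN1 overlaps WT, and PRKAR1B, SOSTDC1, CPVL and INTS1 differ between the 3 clones.

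The clones differed from each other on 7p at about the rate of the genome. Of 245 genes, 98 (40%) differed between the 3 clones at an adjusted p under 0.05, beside 33.8% of all tested genes. The pairwise counts also lay near those of all genes. Between clones 2 and 1, 88 of 245 differed (32.1% of all), between clones 3 and 1, 98 (34.1% of all), and between clones 3 and 2, 3 (1.63% of all), namely FAM221A, EIF4HP1 and CPVL. Clone 1 thus differed most from the other 2 over all genes tested as well. These 3 were singled out after their values were seen. Without either library of clone 1 the count of 98 fell, in a fit that leaves 1 library in that clone. Replicate numbers paired the libraries of the 3 clones, and with the number as a block in a fit of these 6 libraries alone, added after the data were seen, 134 of 242 genes differed (49.5% of all), the 98 among them. Between clones 3 and 2 the blocked count was 21, the 3 named genes included (6.79% of all), against 122 between clones 2 and 1 (45.7% of all) and 123 between clones 3 and 1 (47.5% of all). Without the block these 6 libraries gave 79, 2, 72 and 87 in the same order, beside 29.4%, 0.677%, 29.2% and 31.6% of all genes.

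The 6 genes with the smallest p for a difference between clones were SOSTDC1, PRKAR1B, FAM221A, CPVL, INTS1 and GPER1. SOSTDC1, a secreted antagonist of BMP and Wnt signals, had 21.8, 17.2, 20.9 and 18.7 CPM in WT, 1.18 and 1.15 in clone 1, 38.2 and 28.7 in clone 2, and 29.1 and 19.6 in clone 3. Clone 1 was far below WT (log2 -4.08, adjusted p = 1.17e-06) and clone 2 above it (0.75, adjusted p = 0.0272). It was also low, at 2.42 to 4.77 CPM, in 1q-loss and in clone 2 of 8q-loss, at 4.42 and 3.05, but not in clone 1 of 8q-loss, at 52.0 and 38.1.

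PRKAR1B, a regulatory subunit of protein kinase A, had 95.04, 78.8, 82.1 and 88.4 CPM in WT. It had 5.81 and 8.21 in clone 1, 49.5 and 57.8 in clone 2, and 50.3 and 61.2 in clone 3. Clones 2 and 3 stood near the value for 2 of 3 copies (log2 -0.69 and -0.63), and clone 1 at -3.61 (adjusted p of the difference between clones 1.14e-06). Its gene body overlaps that of DNAAF5, among others.

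FAM221A, a gene of little known function, had 2.47, 2.21, 2.85 and 2.68 CPM in WT, 0 counts in all 4 libraries of clones 1 and 2, and 3.18 and 3.98 CPM in clone 3. Against a limit of 3 counts per library, which a count of 0 allows, it was at least 20.01-fold lower than WT in clone 1 and at least 18.3-fold lower in clone 2; this covers counting error only. CPVL, a serine carboxypeptidase, had 5.09, 5.41, 4.46 and 5.54 CPM in WT, 6.55 and 11.9 in clone 1, 0.223 and 0.0973 in clone 2, and 6.74 and 10.9 in clone 3. Clone 2 alone was low, at 5 and 2 counts. GPER1, a G protein-coupled oestrogen receptor, was at -1.72 in clone 1 and at -0.40 and -0.18 in clones 2 and 3.

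Along the arm, the change was deepest in its outer parts and weaker in the middle. In windows of 10 Mb from the telomere, the medians over all clones were -0.60 (76 genes), -0.37 (16), -0.30 (58), -0.43 (41), -0.63 (42) and -0.55 (15). Clone 1 had -0.66, -0.22, -0.13, -0.22, -0.67 and -0.51. Clone 2 had -0.59, -0.36, -0.41, -0.50, -0.64 and -0.60, and clone 3 had -0.62, -0.44, -0.39, -0.49, -0.66 and -0.53. These fitted medians of the middle 3 windows were nearer 0 than those of the others in all clones, most of all in clone 1. The windows of 16 and 15 genes are thin, and libraries of the same clone differed in others. Measured per library against the WT mean, the third window stood at -0.27 and -0.50 in the 2 libraries of clone 2, at -0.25 and -0.45 in clone 3 and at -0.10 and -0.12 in clone 1. In 8q-loss it stood at 0.22 and -0.01 in clone 1 and at 0.11 and -0.10 in clone 2. In 1q-loss it stood at 0.01 and -0.06 in clone 1 and at 0.08 and -0.05 in clone 2. WT replicates 3 and 4 stood at 0.06 and -0.05, and replicates 1 and 2 at -0.00066 and 0.05. The second library was thus the lower in every clone, and the part of a shared library difference was not tested. In clone 3 the window at the centromere stood at -0.45 and -0.52 by library, nearer 0 than the fourth in both (-0.47 and -0.53) and than the second in 1 (-0.47 and -0.51). In 1q-loss and 8q-loss no fitted window median lay outside -0.13 to 0.10. The grouping into middle and outer windows was made after these medians were seen: the 133 genes of the outer 3 windows had a median of -0.60 over all clones and the 115 of the middle 3 had -0.35. Of the 24 genes whose interval held 0 and not -0.58, 18 lay in the middle windows.

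Calls over all clones numbered 30 of 75, 4 of 16, 4 of 57, 8 of 38, 18 of 42 and 6 of 15 tested genes in the 6 windows from the telomere. All were calls of lower expression, beside 0.804% of all tested genes, and such counts moved with the WT libraries used, as given above. Copy number was not measured in these libraries. Of the 6 listed genes nearest the centromere, CCT6A and CHCHD2 fell, and SUMF2 (log2 -0.32, SE 0.08, adjusted p = 0.121), PSPH (-0.24, SE 0.21), PHKG1 (-0.28, SE 0.34) and AC073136.1 (-1.08, SE 0.29, adjusted p = 0.148) were not called. SUMF2 encodes an endoplasmic reticulum paralogue of the sulfatase-modifying factor, PSPH the last enzyme of serine synthesis, and PHKG1 a catalytic subunit of phosphorylase kinase. The 3 listed genes nearest the telomere were AC093627.5 (-0.72, SE 0.40), AC093627.4 (-1.48, SE 0.59) and FAM20C, all uncalled over all clones; in clone 1 they were at -2.01, -4.06 and -1.93, each called lower, and FAM20C was also called lower in clone 2 (-1.42, adjusted p = 0.036) but not in clone 3 (-1.02, adjusted p = 0.104).

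**Figure D4:**
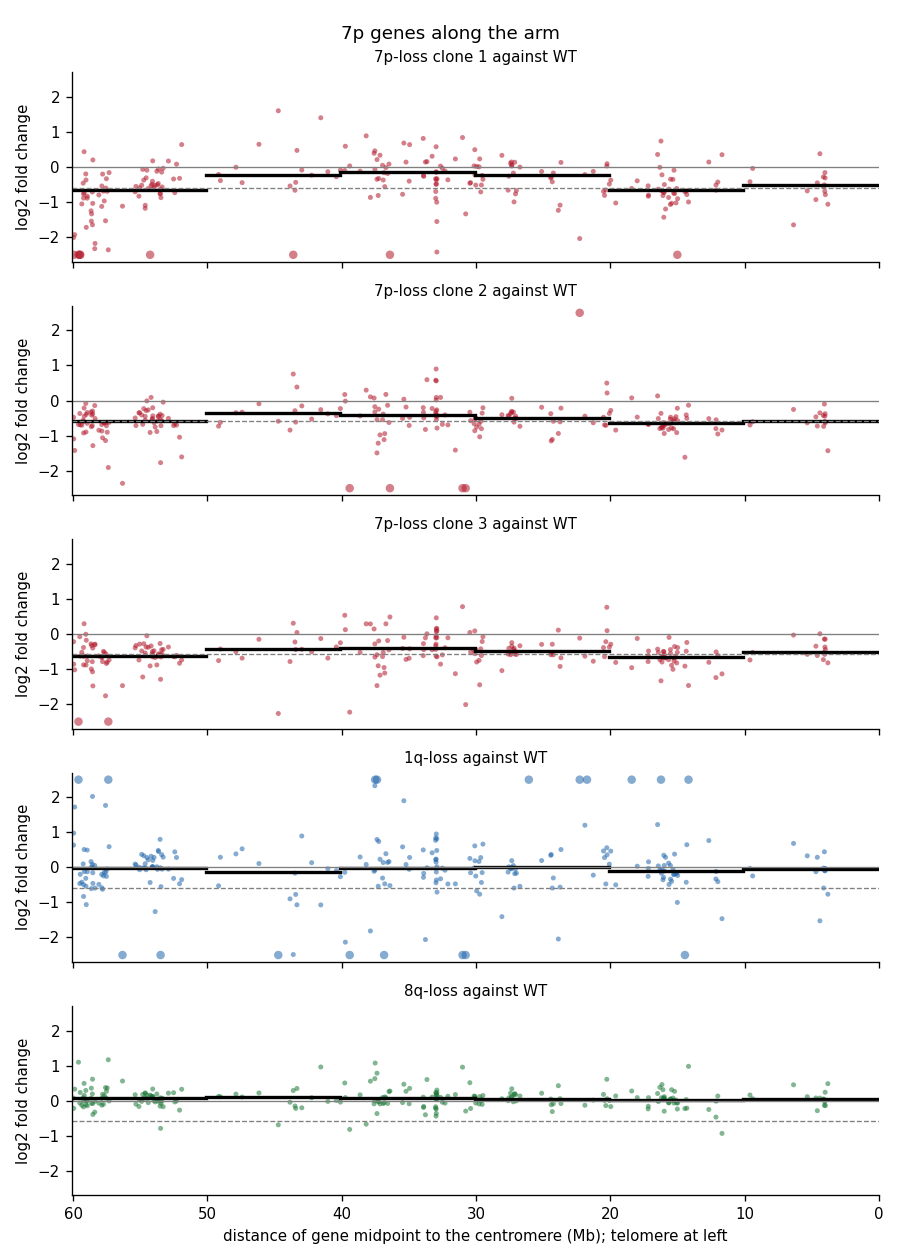
Log2 fold change of each 7p gene against WT by distance of its midpoint to the centromere (telomere at left), for the 3 clones of 7p-loss, 1q-loss and 8q-loss. Black bars are medians of 10 Mb windows, the dashed line is -0.58, and large points at the edge are values past 2.5 in either direction; in the 7p-loss clones the bars lie near the dashed line at both ends of the arm and above it in the middle.

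Base composition changed along the arm as well. The median GC content of the transcripts was 56.8%, 38.7%, 44.5%, 43.7%, 49.6% and 48.2% in the 6 windows. In clone 1, the median log2 fold change of genes outside 7p was lower at higher transcript GC, from 0.16 at up to 40% GC to -0.20 above 60%. In clone 2 these medians were 0.07 and -0.06 and in clone 3 they were 0.05 and -0.04. With the median of those genes in the same GC band subtracted, a step added after the data were seen, the windows of clone 1 became -0.57, -0.34, -0.23, -0.29, -0.62 and -0.58. Those of clone 2 became -0.57, -0.41, -0.40, -0.49, -0.63 and -0.56, and those of clone 3 -0.59, -0.49, -0.38, -0.51, -0.63 and -0.51. The middle 3 windows remained nearer 0 than the outer 3 in clones 1 and 2, while in clone 3 the fourth window and the one at the centromere no longer differed at this rounding. Promoters differed between these parts too: a GC box was present in 68 of 85 matched promoters of the outer windows (80.0%) and in 36 of 70 of the middle windows (51.4%). The part of base composition in the remaining difference was not tested.

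**Figure D5:**
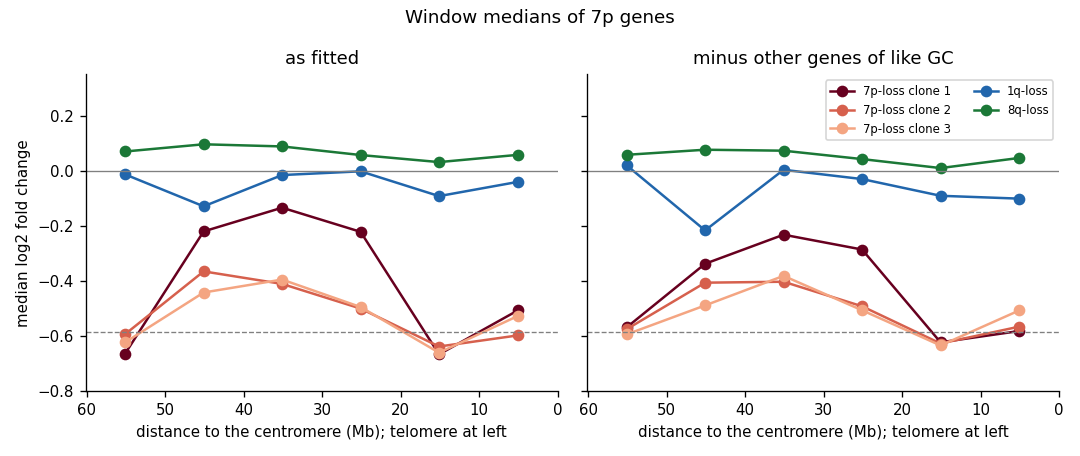
Median log2 fold change of 7p genes in 10 Mb windows by distance to the centromere, as fitted (left) and after subtracting genes outside 7p of like transcript GC (right). Lines are the 3 clones of 7p-loss, 1q-loss and 8q-loss; the middle of the arm lies nearer 0 than its ends in clones 1 and 2 in both panels, while in the right panel clone 3 has -0.51 both in the fourth window from the telomere and at the centromere.

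By expression level, with the list split by mean CPM into 4 groups of equal size, from lowest to highest, the medians over all clones were -0.47, -0.48, -0.52 and -0.54. Protein-coding genes had a median of -0.51 (195 tested), antisense genes -0.51 (12), long intergenic RNAs -0.64 (13) and processed pseudogenes -0.18 (9). The 72 genes that overlap no other annotated gene had a median of -0.58, with -0.54, -0.59 and -0.62 in clones 1, 2 and 3. The other 176 overlap at least 1 gene, and whether counting used the strand is not given in the sources used here, so reads of overlapping genes may be shared.

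At the level limit of 0.5 CPM, ADAP1 (0.536 CPM on average) and SEPT7-AS1 (0.546) were just inside, and MINDY4 (0.476) and SPDYE1 (0.474) just outside. EGFR fell far short of it. It had 0 counts in all 4 WT libraries, 0 in 5 of the 6 libraries of 7p-loss and 2 in the sixth, 0 or 1 in 8q-loss, and 6, 8, 25 and 20 in 1q-loss. A count of 0 allows up to 0.151 CPM in the shallowest WT library, so no dose response of EGFR was detectable at this depth.

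The clones that lost another arm, with no loss of 7p named in their labels, were compared with the same WT libraries, so these comparisons share their controls with those above. In 8q-loss the median of 244 tested 7p genes was 0.06. Of these genes 0 fell and 2 rose by edgeR, HDAC9 and CPVL, beside 1.49% of all genes called lower and 0.542% called higher. At an unadjusted p under 0.05, 2 were lower and 22 higher, and DESeq2 called 0 lower and 4 higher. HDAC9 had 33.3, 22.3, 30.2 and 19.8 CPM in 8q-loss, each above the highest WT library (log2 0.96, adjusted p = 0.0305). CPVL had 9.28, 14.5, 7.25 and 9.23 CPM, again all above WT (log2 0.96, adjusted p = 0.0495). BLVRA, the biliverdin reductase with the third smallest p, was not called (log2 0.38, adjusted p = 0.077). Both calls were lost without any 1 of the WT libraries.

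In 1q-loss the 248 genes had a median of -0.04, and 62 fell (24.3% of all genes) while 64 rose (25.3% of all), shares close to those of the genome. The 3 smallest p were those of EPDR1, ADCY1 and IGFBP3. EPDR1, an ependymin-related lysosomal protein, had 61.6, 59.4, 109 and 116 CPM in 1q-loss and 0.0504 to 0.168 in WT, at 1 to 4 counts a library. In clone 2 of 7p-loss it was also higher than WT (log2 3.11, adjusted p = 0.0242), at 26 and 14 counts. Its WT level was under the limit of 0.5 CPM, which was a mean that included the 1q-loss libraries. The rank of EPDR1 in 1q-loss is therefore not independent of how the genes were chosen. ADCY1, an adenylate cyclase, was at -3.60 in 1q-loss and at -1.03 (adjusted p = 0.118) in 7p-loss. IGFBP3, a binding protein of insulin-like growth factors, rose by 3.42 in 1q-loss and was at -0.75 (adjusted p = 0.505) in 7p-loss. PDGFA rose by 5.41, LFNG by 1.77 and FAM20C by 1.72, while GPNMB fell by 4.12 and ITGB8 by 2.13. The melanocyte genes that were low in the same libraries are given above, and their part in these changes was not tested.

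A comparison with no WT library set the 6 libraries of 7p-loss against the 8 of 1q-loss and 8q-loss, all of them engineered clones. The median of 248 genes was -0.49, against 0.01 on 7q. Of the 248, 148 were lower (10% of all genes) and 9 higher (13.2% of all). The windows along the arm had medians of -0.55, -0.28, -0.29, -0.40, -0.61 and -0.52. CCT6A was at -0.55 (SE 0.05, adjusted p = 7.05e-06), RAC1 at -0.54 (SE 0.05, adjusted p = 2.31e-05), PPIA at -0.64 (SE 0.05, adjusted p = 5.50e-06) and ACTB at -0.32 (SE 0.06, adjusted p = 0.00256). The 4 highest of the 9 were AGMO (2.56), ABCB5 (2.05), GPNMB (1.41) and ITGB8 (1.28), picked after their values were seen. In the same comparison 7 of 8 melanocyte markers were higher (median 2.03) and 3 of 4 fibroblast markers lower (median -2.11); their part in these values was not tested. By list, calls of lower expression numbered 6 of 7 in DNA repair, 7 of 10 in the cytoskeleton, 8 of 9 in translation, 12 of 13 in mitochondria, 9 of 10 in protein folding and 7 of 9 in RNA processing. They numbered 7 of 14 in chromatin, 3 of 13 in HOXA, 7 of 15 in signalling, where 3 were higher, and 3 of 4 among the zinc-finger genes. With the libraries of each clone summed, 49 genes passed in place of 157.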

How the data were processed

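Messenger RNA of 62 libraries was sequenced in the series; the 18 A2058 libraries are used here and the other 4 lines are not analysed here. Per the labels' protocols, RNA was selected with poly-T beads and copied with random hexamers. The deposited tables hold raw counts per gene, 1 table per library, with gene names and GRCh38 coordinates. The submitters' processing notes name HISAT2 2.0.5, featureCounts 1.5.0-p3 and hg38; strand settings and filters are not given in the sources used here. No row lacked a gene name, and no libraries were identical (chi-square per degree of freedom of 7.08 or more within a group).

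Counts were filtered with filterByExpr (minimum count 10, minimum total 15), scaled by TMM and tested with the two-sided quasi-likelihood F-test of edgeR 4.0.16 (limma 3.58.1, R 4.3.3). P-values were adjusted by Benjamini-Hochberg over all genes tested, with calls under 0.05. Fits used only the groups compared; the 3 clones were fitted as separate levels beside WT. CPM values are counts scaled to the TMM-adjusted library size, except that the level limit for membership and the mean levels used to choose named genes divide by the plain total count. SE was taken from the fold change and its F statistic (log2 fold change over root F), and 95% intervals use its t quantile at 10.9 degrees of freedom. Library shifts used log2 CPM with a prior count of 2. Transcript GC is that of the longest GENCODE transcript. Tables were read with Python 3.11.15, pandas 2.3.3, numpy 2.4.6 and scipy 1.17.1 and drawn with matplotlib 3.10.9. The scripts were tested on simulated data.

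The genes named are, for each of 10 lists by role, the 2 most expressed members and those with the lowest and highest log2 fold change in 7p-loss. To these were added the 6 lowest and 6 highest values at a mean of at least 5 CPM, the 4 smallest p, the 6 smallest p between clones, the 6 genes nearest the centromere and 3 nearest the telomere, the 3 smallest p in 1q-loss and in 8q-loss, the 2 genes either side of the level limit, and EGFR, RAC1, ACTB and PMS2. The members, the lists and the tests were chosen with earlier results of these data known.

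Groups share replicate numbers, so the numbers were checked by correlating the difference between replicates 1 and 2 over genes with a mean log2 CPM above 3. Between WT and the 7p-loss clones the correlation was -0.13 to -0.04, so these numbers were not taken to pair the samples. Between WT and the 8q-loss clones it was -0.05 to 0.03. With the 1q-loss clones it was higher, 0.20 to 0.29, and the main fit of 1q-loss used no block either. No pairing was made from WT replicates 3 and 4, which share no number with the clones. Among the 3 clones of 7p-loss it was 0.54 to 0.69, so numbers pair their libraries. Among the 7 loss clones it was 0.10 to 0.72, and a replicate block there left 155 calls in place of 157. Alternatives were DESeq2 1.42.0, RLE factors, TMM over genes outside the lost arms, other filters, a replicate block, summed clones, fewer WT libraries, and leaving out each library and clone. A list of partner proteins holding an item withheld from this text is not reported here.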

Additional observations from a re-analysis of the deposited data

Results flagged for a closer look

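In all, 98 of the 245 genes of 7p tested per clone differed between the 3 clones of 7p-loss (edgeR's quasi-likelihood test on the difference itself, adjusted p under 0.05). Of the genes named here, the adjusted p of this difference was 9.42e-07 for SOSTDC1, 1.14e-06 for PRKAR1B, 6.89e-06 for FAM221A, 1.61e-05 for CPVL, 2.48e-05 for INTS1 and 4.80e-05 for GPER1. It was 0.000322 for H2AFV, 0.000395 for FKBP9, 0.000411 for DDX56, 0.000431 for GNA12, 0.000433 for BLVRA, 0.000605 for HDAC9 and 0.000851 for HOXA10. It was 0.00133 for YKT6, 0.00278 for CDCA7L, 0.00286 for HOXA11-AS, 0.00326 for POLM and 0.00434 for EPDR1. It was 0.0105 for AC093627.4, 0.0153 for AC093627.5, 0.0173 for AC102953.2, 0.0175 for HOXA4, 0.0227 for CYCS, 0.0417 for CHCHD2, 0.0432 for ITGB8, 0.0448 for ZNF853 and 0.0470 for SUMF2.

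Single libraries lay apart from the rest of their group in 11 of 275 groups of values examined, where chance gives about 1 in 20. The median shift of 7p genes was -0.072 in replicate 2 of clone 1 of 1q-loss, against -0.05 to -0.04 in the other 3 libraries. In WT, POLM had 57.6 CPM in replicate 4 (others 42.7 to 44.6) and SEPT7-AS1 had 1.24 CPM in replicate 3 (others 0.461 to 0.563). In replicate 1 of clone 1 of 8q-loss, IGF2BP3 had 138 CPM (others 84.8 to 92.6), HOXA5 had 10.002 (others 3.79 to 4.71) and TSPAN13 had 68.5 (others 37.3 to 42.2). In replicate 2 of that clone PSPH had 49.95 CPM (others 58.5 to 59.3). HDAC9 had 4.76 CPM in replicate 2 of clone 2 of 1q-loss (others 6.87 to 7.10), and PDGFA had 1.03 CPM in replicate 1 of clone 2 of 7p-loss (others 0.0359 to 0.243). EGFR had 0.0885 CPM in replicate 2 of clone 3 of 7p-loss and 0.0480 CPM in replicate 1 of clone 2 of 8q-loss, with 0 in the other libraries of each group, a matter of 2 counts and 1 count.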

How the results depend on the processing

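The median change of 7p genes in 7p-loss kept its direction and size under every alternative run (-0.53 to -0.49), whereas counts of calls moved. From 70 calls in 7p-loss, DESeq2 gave 109, summed clones 23, WT replicates 1 and 2 only 7, WT replicates 3 and 4 only 18, no clone 1 142, no clone 3 40, and 1 library left out 38 to 78. The replicate block gave 0 calls by edgeR (117 at an unadjusted p under 0.05). Replicate numbers did not pair WT with 7p-loss. Numbers 3 and 4 occur in WT only, so with the block the comparison rested on WT replicates 1 and 2. The same holds for the block in 8q-loss. With 1 library left out, clone 1 had 103 to 138 calls (from 133), clone 2 49 to 118 (from 122), clone 3 65 to 124 (from 127), the difference between clones 69 to 97 (from 98), 1q-loss 112 to 120 (from 126), 8q-loss 0 to 1 (from 2) and the engineered comparison 142 to 157 (from 157). Clone 2 had 70 with WT replicates 3 and 4 only, and the engineered comparison 49 with summed clones. The 2 calls of 8q-loss became 4 with DESeq2, 1 at a mean CPM of at least 1, 4 without its clone 1, 10 without its clone 2, and 0 by edgeR with the replicate block (27 at an unadjusted p under 0.05), WT replicates 1 and 2 only (26) or 3 and 4 only (6). The cause was not tested.

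None of the named genes whose sign turned was called in 7p-loss. SPDYE1 (0.00) gave 0.000305 with no filter, 0.042 without clone 1, 0.14 without clone 3, 0.11 with WT replicates 3 and 4 only, and -0.13 to 0.17 with 1 library left out. FSCN1 (-0.05) gave 0.081 with the replicate block, 0.10 with WT replicates 1 and 2 only, and -0.13 to 0.10 with 1 library left out. SOSTDC1 (0.00) gave 0.55 without clone 1, 0.0043 with WT replicates 1 and 2 only, and -0.31 to 0.24 with 1 library left out. CPVL (0.24) gave -0.19 without clone 1, -0.14 without clone 3, and -0.068 to 0.50 with 1 library left out. MRPS24 (-0.06) gave 0.055 without clone 2, 0.30 without clone 3, 0.056 with WT replicates 3 and 4 only, and -0.38 to 0.36 with 1 library left out. HOXA3 (-0.05) gave 0.014 with WT replicates 3 and 4 only and -0.21 to 0.058 with 1 library left out. Without clone 1, HDAC9 (0.55) gave -0.19 and GSDME (0.26) gave -0.023. Depth limits genes of few counts: the SE was 0.35 for SPDYE1, beside the level limit, and 0.06 for RAC1.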
